A study of Mus musculus with 46 samples.

Results

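Propionylation and acetylation of lysine 12 of histone H4 (H4K12pr and H4K12ac) were compared in mouse liver, using the 8 ChIP-seq peak lists of these marks among the 46 samples of the series. There were 4 H4K12pr libraries and 4 H4K12ac libraries. They were chosen by their antibody labels and paired by liver preparation, so that each preparation gave 1 library of each mark. The preparations were PA 1, PA 2, WT 1 and WT 2. PA mice are labelled hypomorphic Pcca-/- (A138T), a model of propionic acidemia that keeps a low activity of the enzyme, and WT mice are the unmutated reference. All animals were females on the FVB background, aged 11 weeks and fed standard chow, and their frozen livers were digested with MNase for native ChIP, in which chromatin is not crosslinked. The H4K12pr antibody came from PTM Bio and the H4K12ac antibody from abcam, so the mark and the antibody cannot be told apart. The labels count the preparations as biological replicates, with 2 per genotype. They do not say more of how the livers were divided.

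Lysine acylation neutralises the positive charge of the histone tail. Acetyl groups come from acetyl-CoA, and propionyl groups, longer by a single carbon, from propionyl-CoA. Propionyl-CoA arises in liver from branched-chain amino acids, odd-chain fatty acids and the propionate made by gut bacteria. Propionyl-CoA carboxylase, whose alpha subunit Pcca encodes, turns it into methylmalonyl-CoA in mitochondria. Many acetyltransferases can also use propionyl-CoA, and bromodomains read acetylated lysine and, often more weakly, the longer acyl groups. H4K12 acetylation is known at active promoters, along transcribed gene bodies and on newly made histone H4.

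The lists give the chromosome, start and end of each peak on GRCm38 (mm10), with no height, score or read count. The measures below are therefore lengths, widths, positions and overlaps of peaks. The sources used here do not state the read depth. A place without a peak is therefore called not listed, and none of the values carries a counting interval. The labelled tissue could be checked by markers. Peaks covered on average 89.2% of the length of the 8 hepatocyte marker genes for H4K12pr and 73.0% for H4K12ac. Of the other cell types, 6 of 6 sinusoidal endothelial markers, 1 of 6 Kupffer cell markers, 1 of 6 stellate cell markers, 2 of 6 cholangiocyte markers and 1 of 6 lymphocyte markers were listed in 2 or more of the 8 libraries.

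Promoters of 4 genes are shown because they belong to the genes whose starts differed most steadily between the marks, Tmem30a and Ndufa4 with more H4K12pr and Taf9b and Cmtm3 with more H4K12ac. Each runs 5′ to 3′ on the gene's own strand from 250 bases before the start to 50 after it, in RefSeq's GRCm38.p6 sequence, with CG dinucleotides in capitals. They lie at chr9:79793381-79793680 (minus strand), chr6:11907401-11907700 (minus strand), chrX:106219793-106220092 (minus strand) and chr8:104340344-104340643 (plus strand).
Tmem30a: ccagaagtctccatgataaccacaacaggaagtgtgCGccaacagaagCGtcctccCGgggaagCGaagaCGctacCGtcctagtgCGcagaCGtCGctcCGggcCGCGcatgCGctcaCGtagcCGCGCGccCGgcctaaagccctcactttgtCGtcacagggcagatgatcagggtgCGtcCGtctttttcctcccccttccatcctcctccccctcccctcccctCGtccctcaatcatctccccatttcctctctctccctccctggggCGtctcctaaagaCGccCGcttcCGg
Ndufa4: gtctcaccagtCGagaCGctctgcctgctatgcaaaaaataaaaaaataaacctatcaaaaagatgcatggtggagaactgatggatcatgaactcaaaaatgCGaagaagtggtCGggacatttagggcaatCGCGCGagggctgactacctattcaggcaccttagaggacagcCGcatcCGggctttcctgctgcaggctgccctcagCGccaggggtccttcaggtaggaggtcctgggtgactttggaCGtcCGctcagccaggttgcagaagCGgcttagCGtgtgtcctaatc
Taf9b: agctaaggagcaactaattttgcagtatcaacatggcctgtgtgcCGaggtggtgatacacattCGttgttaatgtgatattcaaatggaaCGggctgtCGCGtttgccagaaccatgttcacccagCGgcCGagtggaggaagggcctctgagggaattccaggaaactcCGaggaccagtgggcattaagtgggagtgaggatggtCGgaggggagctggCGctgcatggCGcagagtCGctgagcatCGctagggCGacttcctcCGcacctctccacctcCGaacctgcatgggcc
Cmtm3: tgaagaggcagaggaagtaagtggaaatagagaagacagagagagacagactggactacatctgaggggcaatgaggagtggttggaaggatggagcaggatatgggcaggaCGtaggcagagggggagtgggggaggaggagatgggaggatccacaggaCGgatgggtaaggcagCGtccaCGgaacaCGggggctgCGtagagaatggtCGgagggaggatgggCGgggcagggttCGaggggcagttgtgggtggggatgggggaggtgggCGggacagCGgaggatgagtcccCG
The Tmem30a promoter holds 26 CG dinucleotides and the Ndufa4 promoter 14, against 16 in Taf9b and 12 in Cmtm3. The GC box GGGCGG, searched on both strands, was found only in the Cmtm3 window among the 4, at 2 places. Each GGGCGG also holds a CG. CCAAT and TATAAA, searched on both strands, were in none of the 4 windows. Among all 32851 promoter windows of this length, GGGCGG was in 35.7%, CCAAT in 37.4%, TATAAA in 13.6% and at least 1 CG in 94.6%, with a median of 7 CG.

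The first comparison asked how much of the genome each mark covered. Propionylated and acetylated H4K12 covered nearly the same length of DNA, in peaks of different shape. H4K12pr had more peaks, a narrower typical peak, more peaks over 10 kb, more of its covered bases inside genes and less of them on chromosome X. Each of these differences had the same sign in 4 of 4 preparations, which in an exact two-sided sign-flip permutation test gives p = 0.13 (2 of 16 sign patterns), the smallest value 4 pairs allow. None can therefore pass a threshold of 0.05 by this test.

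Covered length was 151, 129, 115 and 126 Mb for H4K12pr in PA 1, PA 2, WT 1 and WT 2, against 150.4, 129, 114 and 116 Mb for H4K12ac in the same preparations. The mean was 130.3 ± 15.0 Mb for H4K12pr and 127 ± 16.7 Mb for H4K12ac (SD, n = 4 each), and the paired log2 ratio was 0.03 ± 0.06. In 3 of the preparations the marks covered almost equal lengths, and in WT 2 H4K12pr covered more; without WT 2 the log2 ratio was 0.0063. Preparation PA 1 stood highest for both marks, so the spread between preparations was shared by the marks.

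The number of peaks was 67651, 65663, 60662 and 59635 for H4K12pr, against 67048, 63605, 55896 and 53815 for H4K12ac, a log2 ratio of 0.08 ± 0.06. Among peaks of at least 1000 bp that ratio was -0.0075. The median peak width was 1256, 1158, 1072 and 1214 bp for H4K12pr, against 1317, 1255, 1281.5 and 1376 bp for H4K12ac. The H4K12pr widths lay 132 ± 66.3 bp lower within preparations, and with equal numbers of the widest peaks in each library -33 bp remained. Only the PA 1 value of H4K12pr reached above the lowest of H4K12ac. At the wide end the order was the other way. Peaks over 10 kb numbered 1598, 997, 844 and 1192 for H4K12pr, against 1427, 838, 789 and 948 for H4K12ac, a log2 ratio of 0.21 ± 0.10. The groups overlapped widely here, since PA 1 was high and WT 1 low for both marks.

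Bases inside protein-coding genes made up 66.0%, 65.0%, 66.6% and 67.3% of the H4K12pr length, against 61.5%, 60.0%, 63.7% and 64.1% of the H4K12ac length. All 4 H4K12pr values lay above all 4 H4K12ac values, with a paired difference of 3.95 ± 1.01 percentage points. Peaks that overlapped the 2 kb centred on a gene start, in contrast, made up 16.9%, 16.9%, 18.1% and 18.6% of H4K12pr peaks, against 17.1%, 17.5%, 19.7% and 20.4% of H4K12ac peaks. That difference was -1.06 ± 0.793 percentage points, or -0.265 with equal numbers of the widest peaks, and the groups overlapped. Peaks more than 50 kb from any gene start were 24.5% of H4K12pr peaks and 25.4% of H4K12ac peaks, a difference of -0.933 ± 0.671 percentage points.

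**Figure D1:**
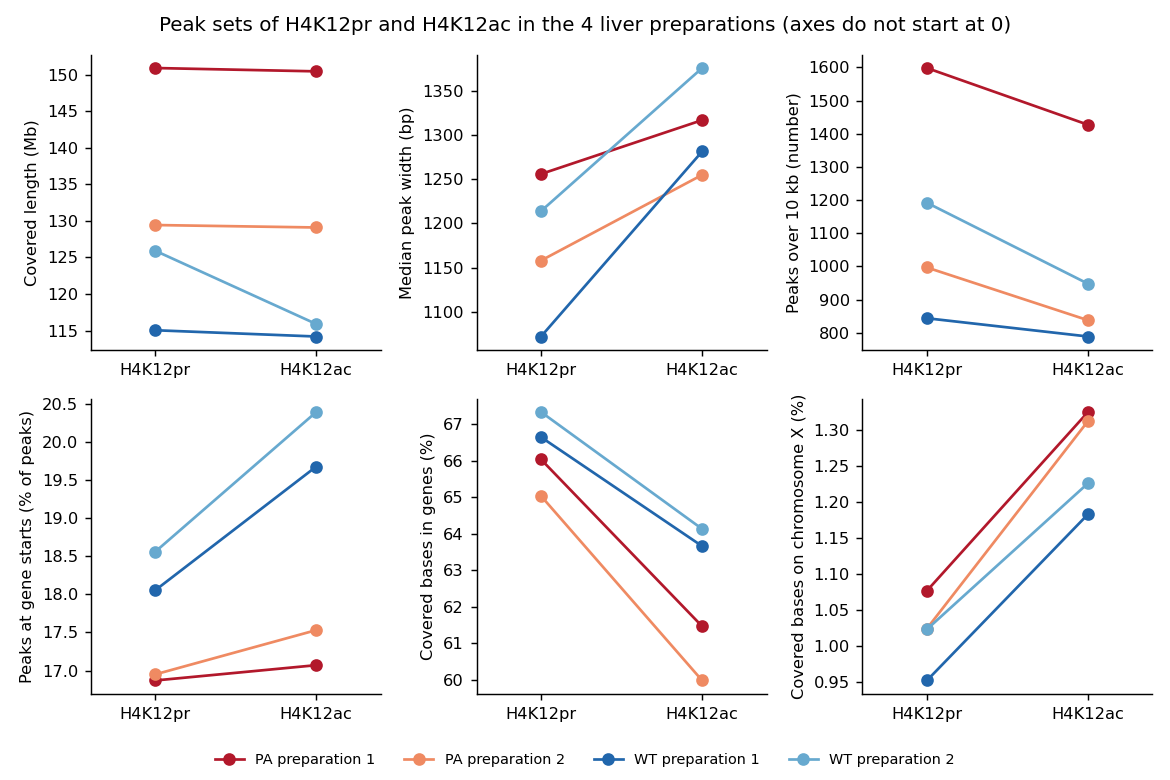
Each panel plots 1 measure of the peak lists (y axis, units given; axes do not start at 0) for H4K12pr and H4K12ac (x axis), with a line joining the 2 libraries of each liver preparation. All 4 lines slope the same way in every panel; covered length is nearly flat in 3 preparations, and the share of covered bases in genes is 66.3 ± 0.975% for H4K12pr and 62.3 ± 1.94% for H4K12ac.

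The marks shared most of their bases. Of the bases covered by H4K12pr, 79.6%, 77.0%, 77.8% and 76.5% were also covered by H4K12ac of the same preparation. Of the bases covered by H4K12ac, 79.8%, 77.2%, 78.4% and 83.2% were also covered by H4K12pr. Counted as peaks that touch, 69.6 ± 1.87% of H4K12pr peaks met an H4K12ac peak, and 74.4 ± 2.18% of H4K12ac peaks met an H4K12pr peak. The Jaccard index, the shared bases over the bases covered by either, was 0.648 ± 0.0175 between the marks of 1 preparation (SD, n = 4). The 4 values ran from 0.627 to 0.663. Between libraries of the same mark and genotype from different preparations it averaged 0.600 and ran from 0.581 to 0.626, and between the same mark in PA and WT it averaged 0.569. Each value between the marks of 1 liver preparation thus lay above each value of a mark with itself in another preparation. H4K12pr and H4K5pr of the same preparation had a mean Jaccard index of 0.642, and H4K12ac and H4K5pr one of 0.695.

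The bases that a mark covered alone differed in their place. In a preparation, H4K12pr covered 28.9 ± 2.33 Mb without H4K12ac, and H4K12ac covered 26.0 ± 4.99 Mb without H4K12pr. Of the H4K12pr bases, 79.4%, 78.2%, 75.2% and 76.1% lay in genes, against 57.0%, 56.2%, 61.7% and 61.5% of the H4K12ac bases. The groups did not overlap. Within 1 kb of a gene start lay 3.43% of the H4K12pr bases and 5.56% of the H4K12ac bases. Chromosome X held 0.902% of the H4K12pr bases and 2.07% of the H4K12ac bases.

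Around gene starts H4K12pr covered less close to the start and more farther inside the gene. The percent of bases covered in 100-bp bins, over 17274 genes with a listed start, was lower for H4K12pr from close upstream of the start to within about 1 kb downstream, and higher for H4K12pr beyond that, inside the gene. At 1 kb upstream it was 40.1% for H4K12pr and 42.4% for H4K12ac, a paired difference of -2.26 ± 1.16 percentage points, negative in 4 of 4 preparations. In the bin just before the start it was 52.3% for H4K12pr and 53.7% for H4K12ac, again lower in 4 of 4. At 500 bp downstream it was 50.2% for H4K12pr and 51.2% for H4K12ac, also lower in 4 of 4. At 1 kb downstream the marks crossed, with 39.9% for H4K12pr and 39.6% for H4K12ac. At 2 kb downstream it was 21.1% for H4K12pr and 18.5% for H4K12ac, a difference of 2.51 ± 0.824 percentage points that was positive in 4 of 4 preparations. At 4 kb downstream it was still higher for H4K12pr, at 13.8% against 11.9% for H4K12ac. The ratio of downstream to upstream coverage was 1.14, 1.11, 1.15 and 1.16 for H4K12pr, against 1.02, 0.971, 1.07 and 1.08 for H4K12ac, with no overlap between the groups.

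**Figure D2:**
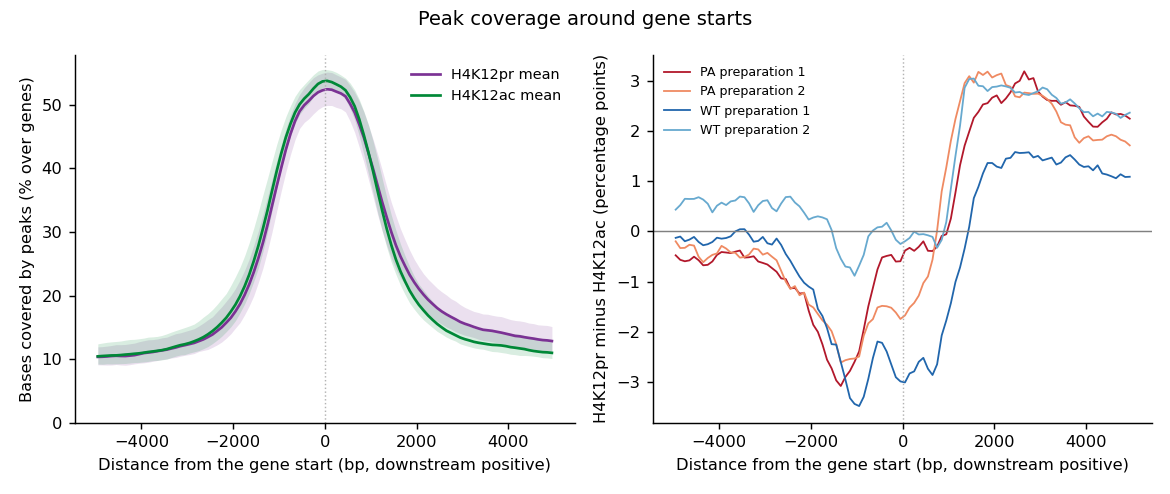
The profile shows the percent of bases covered by peaks over 17274 genes (y axis; shading spans the 4 libraries) in 100-bp bins by distance from the gene start (x axis, upstream to the left), and the H4K12pr minus H4K12ac difference in each preparation. H4K12pr lies below H4K12ac around the start (farther upstream WT 2 lies above 0 and the other preparations near or below it) and above it from about 1 kb inside the gene, where at 2 kb the values are 21.1% for H4K12pr and 18.5% for H4K12ac.

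For single genes, the base pairs covered by peaks were counted in the 5000 bp centred on the gene start and compared between the marks with limma, with the preparation as a block. Genes were kept where 2 or more libraries listed any base. Of the 13654 kept, 0 passed an adjusted p of 0.05 (Benjamini-Hochberg), and the smallest adjusted p was 0.401. At an unadjusted p under 0.05, 552 genes (4.04%) were higher in H4K12pr and 731 (5.35%) lower. In 4 of 4 preparations, 916 genes (6.71%) were higher in H4K12pr and 1346 (9.86%) lower, and the median difference was -14.5 bp. The 5 genes with the smallest p in each direction are described below. They were picked for that rank, their adjusted p is 0.401 for each, and none passed the test.

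Tmem30a, on chromosome 9 from 79768941 to 79793430, encodes the beta subunit of phospholipid flippases. Its start carried 4561, 5000, 5000 and 5000 bp of H4K12pr in PA 1, PA 2, WT 1 and WT 2, against 3959, 4266, 4257 and 4260 bp of H4K12ac. The difference was 705 bp (SE 44.5), and the groups did not overlap. The window was full for H4K12pr in 3 libraries, so a larger difference could not be seen there. Ndufa4, on chromosome 6 from 11900372 to 11907450, encodes a subunit of cytochrome c oxidase that was once counted with complex I. It had 4338, 4147, 4224 and 4768 bp of H4K12pr, against 3087, 3024, 2914 and 3513 bp of H4K12ac, a difference of 1235 bp (SE 107). Every H4K12pr library lay above every H4K12ac library.

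Ncor1 encodes a corepressor of nuclear receptors that brings the deacetylase HDAC3 to chromatin. Its start had 4764, 4684, 4841 and 5000 bp of H4K12pr, against 3773, 4051, 3968 and 4000 bp of H4K12ac, again without overlap between the groups. Tln1 encodes talin, which ties integrins to actin, and Creb3 an endoplasmic reticulum-anchored transcription factor. Their windows share 4925 bp and are 1 observation rather than 2. Tln1 had 4824, 4872, 3530 and 4470 bp of H4K12pr, against 3772, 4064, 2489 and 3422 bp of H4K12ac. WT 1 was low for both marks, and the groups overlapped although each preparation gave more H4K12pr.

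On the other side, Gbp4 encodes an interferon-inducible GTPase. The gene table lists no start for it, and the better covered gene end was used. It had 1630, 846, 1015 and 1374 bp of H4K12pr, against 2653, 2209, 2555 and 2617 bp of H4K12ac, with no overlap. Taf9b, on chromosome X, encodes a subunit shared by TFIID-type complexes. No H4K12pr peak was listed at its start in any of the 4 libraries, while H4K12ac covered 1596, 1222, 1063 and 1014 bp. Cmtm3, a membrane protein gene of the MARVEL family, had 782, 1045, 945 and 0 bp of H4K12pr, against 3086, 2696, 2370 and 1445 bp of H4K12ac. The groups stood apart, and within each mark WT 2 was lowest.

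Sp1 encodes the zinc finger factor that binds GC boxes. Its start had 4071, 2690, 3427 and 3643 bp of H4K12pr, against 5000, 3636, 4274 and 4895 bp of H4K12ac, and the groups overlapped. Over the whole gene the difference had the other sign, at 2.27 percentage points. Clic3, a gene of the chloride intracellular channel family, had 1007, 340, 3117 and 122 bp of H4K12pr, against 3076, 2709, 4396 and 2266 bp of H4K12ac. WT 1 was high for both marks. Pcca, the mutated gene, lies on chromosome 14 from 122484365 to 122889944. Its start had 3833, 3857, 4054 and 3955 bp of H4K12pr, against 4764, 3721, 4137 and 3908 bp of H4K12ac. The difference of -208 bp (SE 214) did not pass (adjusted p = 0.731). Without PA 1, where H4K12ac was high, it was 33.3 bp.

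**Figure D3:**
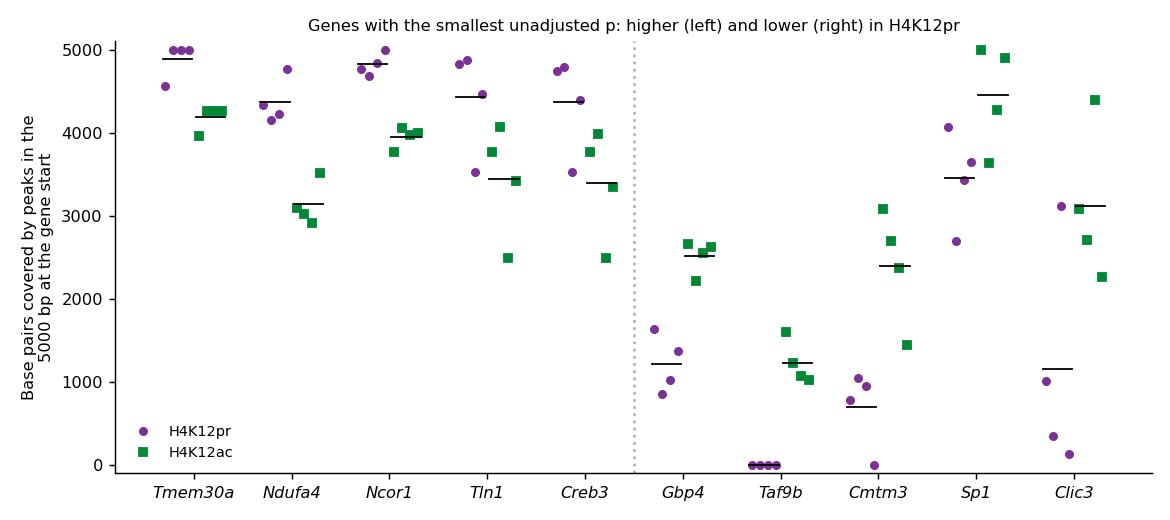
Points give the base pairs covered by peaks in the 5000 bp at the gene start (y axis) in each of 4 H4K12pr and 4 H4K12ac libraries, for the 10 genes with the smallest unadjusted p (x axis; 5 higher in H4K12pr on the left, 5 lower on the right); lines are means. Taf9b has no listed H4K12pr base and 1014 to 1596 bp of H4K12ac; none of the 10 passed the adjusted threshold.

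CG-rich promoters lay more on the H4K12pr side. Autosomal genes with a listed start were grouped by the number of CG dinucleotides in the 300-base promoter window. The mean H4K12pr minus H4K12ac difference ran from -103 bp with 0 to 2 CG (492 genes) to 71.4 bp with 31 CG or more (2136 genes), and was higher in each next of 6 classes in the mean of the preparations. In WT 1 it was -105 bp in the lowest class, -142 bp in the fourth and -52.7 bp in the highest, so the steady order did not hold there. Coverage differed between the classes too, with a mean of 2289 bp of H4K12pr in the lowest and 3144 bp in the highest. Autosomal starts of 1000 to 2000 bp mean coverage had a difference of -100.1 bp, and those of 4000 to 5000 bp 49.5 bp. How much of the CG order goes with coverage was not tested. Across genes, which are not independent replicates, the correlation of CG number and difference was weak, at r = 0.127, 0.127, 0.0457 and 0.0713 in the 4 preparations. Promoters of the 723 genes higher in H4K12pr in 4 of 4 preparations held a median of 24 CG, those of the 1072 lower ones 18, and those of all 10863 tested genes with an entry 20. GGGCGG was in 71.6% of the windows of the higher genes, 55.2% of those of the lower genes and 62.3% of all. A match of letters is a description of the window and shows no bound factor.

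Over whole genes the marks differed more than at starts. The percent of each gene's length covered by peaks averaged 22.4% for H4K12pr and 20.8% for H4K12ac over 14613 genes. With limma and the preparation as a block, 0 genes passed an adjusted p of 0.05, with 0.149 as the smallest. At an unadjusted p under 0.05, 1846 genes (12.6%) were higher in H4K12pr and 672 (4.6%) lower. After quantile normalization between the libraries, which removes differences in total coverage, these were 1268 and 1136. In 4 of 4 preparations 2462 genes (16.8%) were higher and 1316 (9.01%) lower, with a median difference of 0.131 percentage points. The mean difference grew with coverage. Over autosomal genes it was 0.319 ± 0.373 percentage points where mean coverage was under 20% (8971 genes), 2.61 ± 1.20 from 20 to 40% (2725 genes), 5.72 ± 2.00 from 40 to 60% (1221 genes) and 7.31 ± 3.26 from 60 to 80% (638 genes; SD over 4 preparations). Above 80%, where little room is left, it was 3.03 ± 2.06 (666 genes). Genes that overlap on the genome share peaks and are not separate observations.

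Genes of several liver functions lay on the H4K12pr side, while the few male-biased liver genes tested showed no steady direction. Of 21 secreted plasma protein genes, all tested, 14 were covered more by H4K12pr in 4 of 4 preparations and 0 by H4K12ac, set against 16.8% and 9.01% of all genes. The list's median difference was 16 percentage points, and its mean coverage was 82.2% for H4K12pr and 65.4% for H4K12ac. C3, the central complement component, was covered over 71.1%, 64.2%, 31.7% and 92.6% of its length by H4K12pr, against 14.6%, 13%, 10.3% and 34.3% by H4K12ac. Every preparation showed more H4K12pr, and WT 1 was lowest for both marks. Fgb, the fibrinogen beta chain gene, had 77.5%, 71.1%, 74.4% and 100% for H4K12pr, against 22.9%, 7.08%, 50.6% and 92.6% for H4K12ac. Fga and Fgg, for the other fibrinogen chains, averaged 71.5% and 76.8% for H4K12pr, against 37.8% and 51.8% for H4K12ac. The 3 fibrinogen genes are neighbours and may share peaks. Neither C3 (adjusted p = 0.151) nor Fgb (adjusted p = 0.237) passed.

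Of 8 hepatocyte marker genes, 6 were higher in H4K12pr in 4 of 4 preparations and 0 lower, against 16.8% and 9.01% of all genes. The median difference was 17.1 percentage points. Fgb, described above with the plasma proteins, is among these 8 genes, so the lists are not separate observations. Ttr, which encodes the thyroid hormone carrier transthyretin, had 88.4%, 100%, 93.1% and 93.7% for H4K12pr, against 71.4%, 62.5%, 79.4% and 80.7% for H4K12ac, without overlap. Cps1, the entry enzyme of the urea cycle, had 98.3%, 95.8%, 84.1% and 93.2% for H4K12pr, against 81.3%, 58.9%, 54.7% and 72.7% for H4K12ac. Its difference was 26.0 percentage points (SE 3.81), and the groups did not overlap. Of 10 urea cycle genes, 7 were higher in H4K12pr in 4 of 4 preparations and 0 lower, with a median of 14.6 percentage points. Ass1, which joins citrulline and aspartate, averaged 98.2 ± 1.35% for H4K12pr and 78.5 ± 9.71% for H4K12ac (SD, n = 4 each). Otc, the X-linked ornithine transcarbamylase gene, was little covered, with 9.34% for H4K12pr and 7.40% for H4K12ac.

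Lipid pathways showed the same direction. Of 15 cholesterol synthesis genes, 10 were higher in H4K12pr in 4 of 4 preparations and 0 lower, against 16.8% and 9.01% of all genes. The median was 11.0 percentage points. Fdps, which makes farnesyl diphosphate, had 76.1%, 77.9%, 33.3% and 51.5% for H4K12pr, against 23.9%, 44.9%, 22.2% and 39.5% for H4K12ac. The difference was 27.1 percentage points (SE 8.39) and did not pass (adjusted p = 0.248). WT 1 was lowest for both marks, and the groups overlapped. Of 16 mitochondrial fatty acid oxidation genes, 11 were higher and 0 lower, with a median of 8.96 percentage points. Acads, the short-chain acyl-CoA dehydrogenase, had 34.9%, 29.5%, 24.5% and 24.4% for H4K12pr, against 19.1%, 10.02%, 13.3% and 18.6% for H4K12ac. Every H4K12pr value lay above every H4K12ac value.

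Of 16 PPARA targets and ketogenesis genes, 11 were higher in H4K12pr in 4 of 4 preparations and 0 lower, against 16.8% and 9.01% of all genes. The median was 10.4 percentage points. Cyp4a14, a fatty acid omega-hydroxylase, averaged 63.5 ± 25.2% for H4K12pr and 40.8 ± 19% for H4K12ac, and Plin2, a lipid droplet coat protein, 32.4 ± 3.94% for H4K12pr and 22.0 ± 4.96% for H4K12ac. Of 14 bile acid genes, 8 were higher and 1 lower, with a median of 15.6 percentage points. Nr1h4, the bile acid receptor FXR, averaged 77.3 ± 13% for H4K12pr and 56.7 ± 6.18% for H4K12ac. Abcb11, the bile salt export pump, averaged 33.6 ± 13.8% for H4K12pr and 12.9 ± 4.48% for H4K12ac. Of 18 hepatocyte transcription factor genes, which include Nr1h4, 9 were higher and 0 lower.

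Of 18 tricarboxylic acid cycle genes, 13 were higher in H4K12pr in 4 of 4 preparations and 0 lower, although the median was 4.69 percentage points. For this and the following counts, the shares of all genes were 16.8% higher and 9.01% lower. Sdha, a subunit of succinate dehydrogenase, averaged 12.1 ± 2.61% for H4K12pr and 6.45 ± 2.39% for H4K12ac. Of 10 gluconeogenesis genes, 4 were higher and 0 lower, with a median of 10.6 percentage points. G6pc, which releases glucose, averaged 82.1 ± 25.8% for H4K12pr and 57.2 ± 25.7% for H4K12ac, and Got1, the cytosolic aspartate aminotransferase, 75.8 ± 13.6% for H4K12pr and 60.2 ± 12.5% for H4K12ac. Fbp1, fructose-1,6-bisphosphatase, averaged 79.1% for H4K12pr and 58.8% for H4K12ac. Of 20 xenobiotic metabolism genes, 6 were higher and 0 lower, with a median of 2.73 percentage points, or 0.657 after quantile normalization. Of 12 tested of 14 male-biased liver genes, 1 was higher and 2 were lower, with a median of -0.28 percentage points, or -3.42 after quantile normalization. These few genes made up 8.33% and 16.7% of the list, and its mean difference was 0.539, -0.328, -1.78 and 2.70 percentage points in PA 1, PA 2, WT 1 and WT 2. Of 15 female-biased liver genes, 6 were higher and 0 lower, with a median of 1.76 percentage points.

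These lists differed from each other in how well their genes were covered, and the difference between the marks grew with coverage. The plasma protein genes averaged between 65.4% and 82.2%, where all autosomal genes of 60 to 80% coverage showed a mean of 7.31 percentage points. The fatty acid oxidation genes averaged between 22.4% and 33.3%, where genes of 20 to 40% coverage showed a mean of 2.61 percentage points. The list means were 16.8 and 10.8 percentage points. The share of autosomal genes higher in 4 of 4 preparations was 25.1% at 20 to 40% coverage, 31.8% at 40 to 60% and 33.5% at 60 to 80%. It was 66.7% for the plasma protein genes and 68.8% for the fatty acid oxidation genes. For the xenobiotic genes, which averaged between 52.9% and 59.0% coverage, it was 30%, near the share of genes of like coverage. How much of each list's difference goes with its coverage was not tested. Quantile normalization lowered the median difference to 9.30 percentage points for plasma proteins, 8.45 for hepatocyte markers, 9.83 for the urea cycle, 7.89 for cholesterol synthesis, 6.76 for fatty acid oxidation, 7.91 for PPARA targets, 8.92 for bile acid genes, 5.73 for gluconeogenesis and 4.06 for the tricarboxylic acid cycle, while the median of all genes became -0.0568.

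Of 15 propionate and methylmalonate genes, which handle the propionyl group, 3 were higher in H4K12pr in 4 of 4 preparations and 0 lower, against 16.8% and 9.01% of all genes, with a median of 0.915 percentage points, which is the value of Pcca itself. Pcca was covered over 5.50%, 4.92%, 5.14% and 6.62% of its length by H4K12pr, against 4.75%, 3.68%, 4.67% and 5.41% by H4K12ac (adjusted p = 0.262). The groups overlapped, with each preparation slightly higher for H4K12pr. Pccb, the beta subunit of the carboxylase, averaged 4.34% for H4K12pr and 5.38% for H4K12ac. Mmachc, a cobalamin-processing protein, averaged 55.9 ± 8.57% for H4K12pr and 41.7 ± 8.81% for H4K12ac, with PA 2 going the other way. Of 16 tested of 17 branched-chain amino acid genes, 5 were higher and 0 lower, with a median of 1.07 percentage points, where the median of all genes was 0.131. The list means were 2.88 percentage points for the propionate genes and 3.07 for the branched-chain genes, against 1.58 for all genes. Bckdha, of the branched-chain ketoacid dehydrogenase, averaged 45.0% for H4K12pr and 36.6% for H4K12ac.

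Among enzymes and readers of the marks, 5 of 12 lysine acetyltransferase genes were higher in H4K12pr in 4 of 4 preparations and 0 lower, against 16.8% and 9.01% of all genes. Crebbp, the acetyltransferase CBP, averaged 10.8 ± 2.33% for H4K12pr and 5.90 ± 0.603% for H4K12ac. Of 18 deacylase genes, 2 were higher and 1 lower, near the share of all genes, and of 13 acyl-lysine reader genes, 4 were higher and 0 lower. Brd2, a bromodomain protein that binds acetylated H4, had 52.6%, 56.5%, 61.2% and 77.7% for H4K12pr, against 41.1%, 38.8%, 38.2% and 39.1% for H4K12ac, with no overlap. Of 10 genes supplying acyl-CoA outside mitochondria, 3 were higher and 0 lower. Acly, which makes acetyl-CoA from citrate, averaged 53.5 ± 24.6% for H4K12pr and 29.4 ± 15.0% for H4K12ac.

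Lists outside liver metabolism varied. Of 15 tested of 17 interferon response genes, 3 were higher in H4K12pr in 4 of 4 preparations and 1 lower, with a median of -0.72 percentage points. Over whole genes, 16.8% of all genes were higher and 9.01% lower. At gene starts 1 interferon response gene was higher and 4 were lower, with a median of -262 bp. Of all genes at starts, 6.71% were higher and 9.86% lower. Stat2, a mediator of interferon signalling, averaged 40.9% for H4K12pr and 26.4% for H4K12ac over the whole gene, and Ifit3, an interferon-induced antiviral gene, 57.6% for H4K12pr and 61.1% for H4K12ac. Of 18 spliceosome genes, 4 were higher and 2 lower over whole genes, with a median of 0.95 percentage points that became -0.135 after quantile normalization, and 0 were higher and 5 lower at starts, again against 6.71% and 9.86% of all genes. Of 23 cytosolic ribosomal protein genes, 6 were higher and 0 lower over whole genes, with a median of 7.42 percentage points. The higher ones made up 26.1%, against 31.8% of autosomal genes of 40 to 60% coverage. Of 6 tested of 18 Hox genes, 0 were higher and 0 lower in 4 of 4 preparations. Hoxa5 had 17.6%, 0%, 0% and 0% for H4K12pr, against 51.9%, 37.8%, 48.7% and 0% for H4K12ac. WT 2 listed neither mark there.

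Of the 6 sinusoidal endothelial markers, 1 (16.7%) was higher and 1 (16.7%) lower, against 16.8% and 9.01% of all genes. The median was 0.56 percentage points, or -1.94 after quantile normalization. Clec4g, a lectin of these cells, had 19.7%, 14.7%, 3.67% and 3.67% for H4K12pr, against 17.8%, 31.9%, 21.8% and 19.4% for H4K12ac. Kdr, the VEGF receptor 2 gene, averaged 2.55% for H4K12pr and 0.811% for H4K12ac. The only Kupffer marker tested, Csf1r, averaged 9.92 ± 2.03% for H4K12pr and 7.09 ± 6.36% for H4K12ac. The endothelial list as a whole averaged 21.4% for H4K12pr and 22.7% for H4K12ac. Both marks of a preparation are labelled with the same input library.

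**Figure D4:**
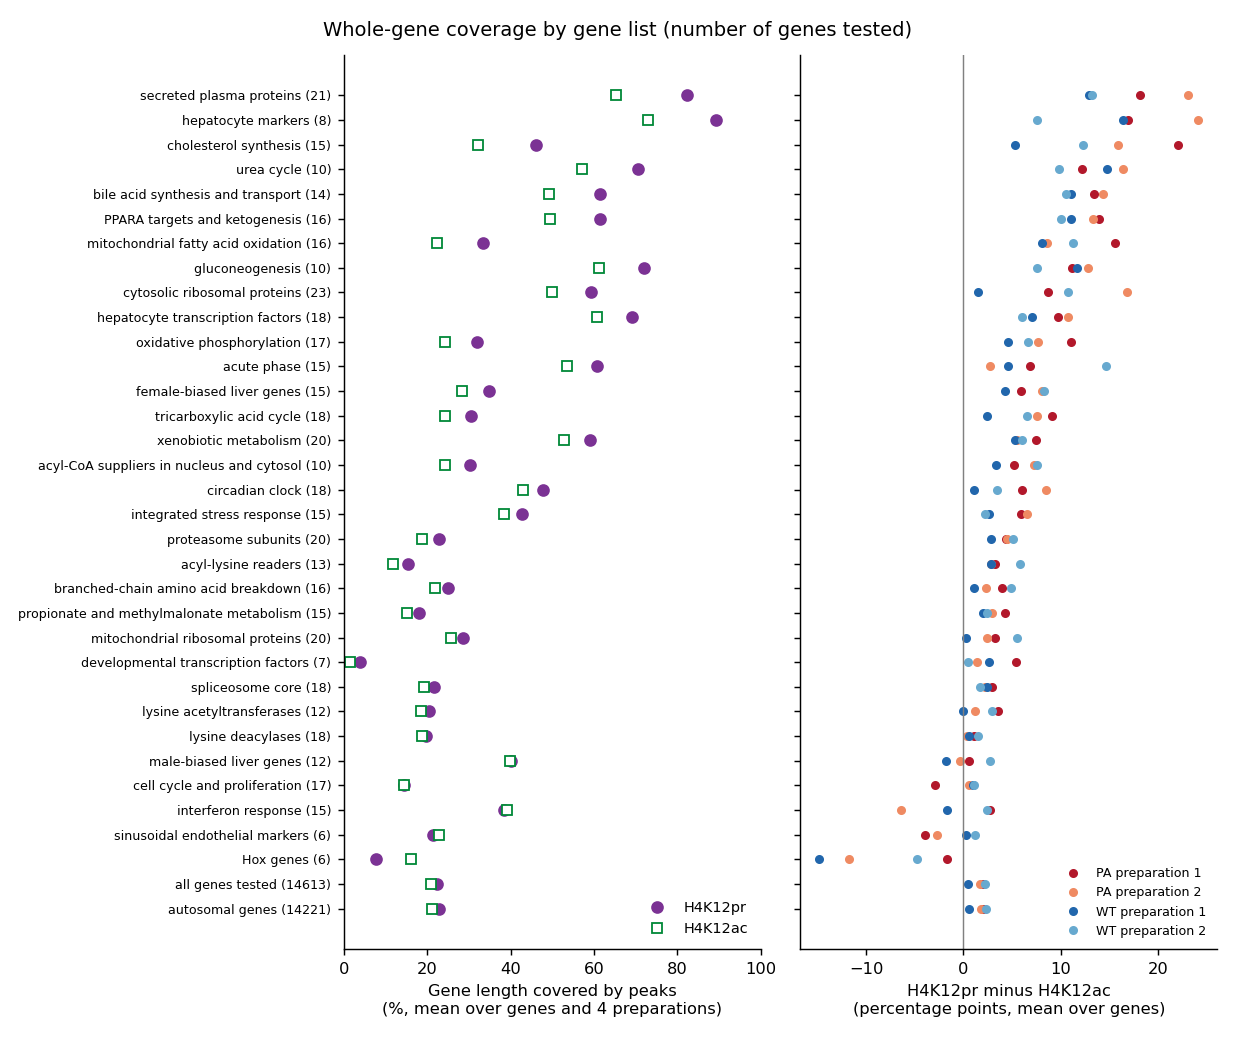
The left panel gives the percent of gene length covered by peaks (x axis, mean over the tested genes of each list and 4 preparations) for H4K12pr and H4K12ac; the right panel gives the H4K12pr minus H4K12ac difference in percentage points for each preparation, with the number of genes in brackets. Secreted plasma proteins and hepatocyte markers lie highest, at 82.2% and 89.2% for H4K12pr against 65.4% and 73.0% for H4K12ac, and the Hox genes on the other side of 0.

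The genes with the smallest unadjusted p over whole genes were looked up after the values were seen, and each had an adjusted p of 0.149. Prdx1, a peroxide-reducing enzyme, was covered over 82.9%, 72.4%, 90.6% and 76.4% by H4K12pr, against 34.0%, 20.2%, 49.0% and 38.2% by H4K12ac, with no overlap. Irf3, a transcription factor of antiviral responses, averaged 71.5% for H4K12pr and 41.3% for H4K12ac. Sdc4, the heparan sulfate proteoglycan syndecan-4, averaged 98.3% for H4K12pr and 77.7% for H4K12ac. On the other side, Clic3 had 37.5%, 0%, 54.7% and 0% for H4K12pr, against 100%, 66.5%, 100% and 46.0% for H4K12ac. This gene is 1935 bp long, shorter than the 5000 bp start window. Its whole-gene values therefore measure the peaks of its start again and are not a separate observation.

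Chromosome X carried less of H4K12pr than of H4K12ac. Its share of covered bases was 1.08%, 1.02%, 0.952% and 1.02% for H4K12pr, against 1.32%, 1.31%, 1.18% and 1.23% for H4K12ac. All H4K12pr values lay below all H4K12ac values, and the paired log2 ratio was -0.31 ± 0.04 (exact sign-flip p = 0.13). The mean log2 ratio of the 19 autosomes ran from -0.03 to 0.04. Peaks on chromosome X covered 1.33 ± 0.219 Mb for H4K12pr and 1.61 ± 0.293 Mb for H4K12ac, and their median width was 1005 ± 110 bp for H4K12pr and 1293 ± 117 bp for H4K12ac. For the neighbouring lysine the direction was the other: the log2 ratio of H4K5pr over H4K5ac on chromosome X was 0.73.

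By mark, the mean share of covered bases on chromosome X was 1.02% for H4K12pr and 1.26% for H4K12ac, beside 1.47% for H4K5pr, 0.888% for H4K5ac, 1.33% for H4K16pr, 1.21% for H4K16bu (butyrylation), 0.865% for H4K16ac, 1.44% for H3K9ac and 1.03% for H3K27ac. The H4K12 marks lay inside the range set by the other antibodies, and H4K12pr was close to H3K27ac. Libraries of H4K16bu, H4K16ac, H3K9ac and H3K27ac carry the letter A in their labels and the others the letter B. Between these sets, mark and letter cannot be told apart.

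At the starts of 365 X-linked genes, 96 (26.3%) were lower in H4K12pr in 4 of 4 preparations and 6 (1.64%) higher, against 9.86% and 6.71% of all genes tested. For H4K5, 0 of these genes were lower in H4K5pr than in H4K5ac in 4 of 4 preparations and 206 (56.4%) were higher. The mean X-linked difference of H4K12pr minus H4K12ac was -289, -392, -414 and -214 bp in PA 1, PA 2, WT 1 and WT 2, while autosomal genes averaged -12.9, -9.43, -104 and 68.1 bp. X-linked starts were less covered than autosomal ones, so genes of like coverage were also set side by side. Between 1000 and 2000 bp of mean coverage the difference was -401 ± 110 bp for 139 X-linked genes and -100.1 ± 93.8 bp for 1970 autosomal genes (SD over preparations). Between 2000 and 3000 bp it was -391 ± 145 bp for 92 X-linked genes and -48.3 ± 89.3 bp for 3557 autosomal genes. Between 3000 and 4000 bp the gap was smaller and mixed, at -98.2 ± 175 bp for 30 X-linked genes, with PA 2 at 88.5 bp, and 28.8 ± 69.6 bp for 3468 autosomal genes. Below 1000 bp it was -227 ± 78.1 bp for 96 X-linked genes and -24.3 ± 38.7 bp for 1848 autosomal genes. Over whole genes, 17 of 392 X-linked genes (4.34%) were higher and 79 (20.2%) lower in H4K12pr in 4 of 4 preparations. Of all genes tested over whole genes, 16.8% were higher and 9.01% lower.

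Besides Taf9b, the X-linked genes with the smallest unadjusted p, again chosen after their values were seen, included Stag2, Rbm41 and Renbp, each with an adjusted p of 0.4502. Stag2, a cohesin subunit, had 3650, 3947, 4062 and 3814 bp of H4K12pr at its start, against 5000, 5000, 4953 and 4451 bp of H4K12ac, while over its whole length the difference was 0.193 percentage points. Rbm41, an RNA-binding protein gene, had 1050, 646, 635 and 759 bp of H4K12pr, against 1567, 1399, 1618 and 1527 bp of H4K12ac. The groups did not overlap for either gene. Renbp, which encodes the renin-binding protein, had no listed H4K12pr base in any library and 629, 804, 926 and 500 bp of H4K12ac.

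**Figure D5:**
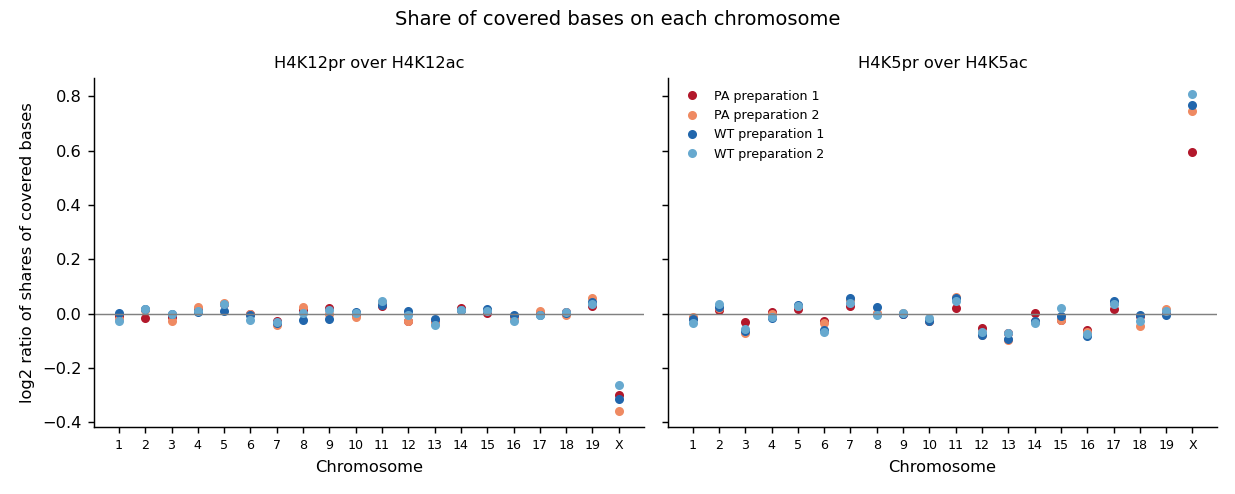
The plot gives the log2 ratio of the share of covered bases of each chromosome (y axis; propionyl over acetyl) by chromosome (x axis), for H4K12 and for H4K5 in each preparation. For H4K12 the autosome means lie between -0.03 and 0.04 and chromosome X at -0.31; for H4K5 chromosome X lies on the other side of 0, at 0.73.

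Regions that separated the marks in every library were few. Peaks of the 8 libraries merged into 114481 regions, of which 25152 (22.0%) had a peak in all 8 libraries. A single H4K12pr library alone listed 27099 regions, and a single H4K12ac library alone 19864. In 129 regions (0.113%) all 4 H4K12pr libraries and 0 H4K12ac libraries had a peak, and in 69 (0.0603%) all 4 H4K12ac libraries and 0 H4K12pr libraries did. These counts rest on every library: without PA 1, PA 2, WT 1 or WT 2 the H4K12pr count was 476, 441, 503 or 446 and the H4K12ac count 272, 239, 297 or 331, out of 3 preparations. Where a library had to cover 50% of a region, the H4K12pr count was 59 and the H4K12ac count 87. With equal numbers of the widest peaks the counts were 81 for H4K12pr and 109 for H4K12ac, so which set was larger depended on these settings. The 2 sets were chosen by presence, so their other features are given as a description. The H4K12pr regions had a median width of 1779 bp, 89.9% lay in a gene and 3 came within 1 kb of a gene start. The H4K12ac regions had a median width of 1300.0 bp, 52.2% lay in a gene and 6 came within 1 kb of a start. Of all regions, 71.9% lay in a gene and 10.8% came within 1 kb of a start.

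Other marks were not used in the choice, and their presence in the 2 sets is given without a test. The H4K5 and H4K16pr libraries carry the letter B in their labels, as the H4K12 libraries do. Those of H4K16bu, H4K16ac, H3K27ac and H3K9ac carry the letter A, so for them mark and letter cannot be told apart. At least 1 H4K5pr library had a peak in 29.5% of the H4K12pr regions and in 94.2% of the H4K12ac regions, beside 52.2% of all regions. H4K16pr had a peak in 17.1% of the H4K12pr regions and 81.2% of the H4K12ac regions, beside 43.9% of all regions. H4K16bu had one in 27.9% of the H4K12pr regions and 81.2% of the H4K12ac regions, beside 45.1% of all. For H4K16ac it was 38.0% of the H4K12pr regions and 60.9% of the H4K12ac regions, beside 48.2% of all. H3K27ac had a peak in at least 1 library in 81.4% of the H4K12pr regions and 88.4% of the H4K12ac regions, beside 66.0% of all, and in all 4 libraries in 24.0% of the H4K12pr regions and 15.9% of the H4K12ac regions, so its order depended on the number of libraries asked for. H4K5ac had a peak in 51.9% of the H4K12pr regions and 78.3% of the H4K12ac regions, beside 60.2% of all. H3K9ac had a peak in 59.7% of the H4K12pr regions and 88.4% of the H4K12ac regions, beside 50.7% of all. Asked for in all 4 libraries, H4K16pr was in 8.70% of the H4K12ac regions against 20.7% of all, and H4K16bu in 4.35% against 20.1%. H4K16ac was then in 1.45% against 14.8%, and H4K5ac in 11.6% against 24.1%. H4K5pr and H3K9ac stayed above all regions, at 33.3% against 25.8% and 42.0% against 26.3%. Each of these marks was then rarer in the H4K12pr regions than in all regions.

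The longest of the H4K12pr regions was chr4:129229585-129233893, inside C77080, covered over 2129, 2162, 1541 and 4309 bp in PA 1, PA 2, WT 1 and WT 2. The next was chr13:3562959-3566946, inside Gdi2 and Tasor2, with 1425, 500, 1901 and 3181 bp, and the third chr16:17473318-17476991, inside Crkl, with 3102, 825, 500 and 500 bp. Crkl encodes a signalling adaptor and Gdi2 a regulator of Rab GTPases. The longest of the H4K12ac regions was chr12:79878587-79881673, in no gene and 231340 bp from the start of Zfp36l1, an mRNA decay factor, with 3087, 1542, 890 and 500 bp. It was followed by chr16:21635631-21638380, inside Vps8, with 2620, 1285, 990 and 1000 bp, and chr19:53086261-53088861, in no gene, 47691 bp from the start of Xpnpep1, with 2601, 1410, 2267 and 625 bp. In these regions the covered length varied several-fold between preparations, down to the shortest peak the lists hold, 500 bp.

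Genotype was tested as a term on the difference between the marks. Between PA and WT livers, fewer cells of a type and less of a mark per cell cannot be told apart. The difference in the share of bases in genes was 4.57 and 5.05 percentage points in PA and 2.98 and 3.20 in WT, with no overlap between the genotypes. The difference in median peak width was -61 and -97 bp in PA and -209.5 and -162 bp in WT, and that in the share of peaks at gene starts -0.201 and -0.581 percentage points in PA and -1.63 and -1.84 in WT. With 2 preparations per genotype the exact permutation test cannot go below p = 0.333, which each of these gave. With equal numbers of the widest peaks, the width difference was -77 and -49 bp in PA and -52 and 46 bp in WT. That in the share of peaks at gene starts was then -0.125 and -0.290 percentage points in PA and -0.452 and -0.195 in WT. The genotypes then overlapped in both, but not in the share of bases in genes. In the full lists they overlapped for the share of covered bases on chromosome X and for peaks over 10 kb. At gene starts limma found 0 of 13654 genes whose mark difference was larger or smaller in PA at an adjusted p of 0.05, with 0.858 as the smallest; at an unadjusted p under 0.05, 399 (2.92%) were more positive in PA and 386 (2.83%) more negative.

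The genes with the smallest p in each direction did not pass. Tgoln1, a trans-Golgi membrane protein gene, was full of H4K12pr, with 5000 bp in all 4 libraries, while H4K12ac covered 3458 and 3544 bp in PA and 5000 and 5000 bp in WT. Dennd2a, a regulator of Rab GTPases, had 628 and 738 bp of H4K12pr in PA and 537 and 657 bp in WT, while H4K12ac covered 2298 and 2381 bp in PA and 511 and 558 bp in WT. In Tgoln1 the window was full for H4K12pr, so a difference of that mark between the genotypes could not be seen. In Dennd2a the H4K12pr values of PA and WT overlapped and the H4K12ac values did not. The PA minus WT values were 1499 bp (SE 73.7) for Tgoln1 and -1719 bp (SE 172) for Dennd2a. Grb7 and Masp2 followed with 1123.5 and 1324.5 bp, and Naif1 and Leng9 with -806.5 and -1313.5 bp.

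Over whole genes, the mean H4K12pr minus H4K12ac difference was 1.83 percentage points in PA and 1.34 in WT over all genes tested. The secreted plasma protein genes had 20.6 in PA and 13.1 in WT, the cholesterol synthesis genes 18.9 in PA and 8.78 in WT, and the tricarboxylic acid cycle genes 8.35 in PA and 4.50 in WT. The propionate and methylmalonate genes had 3.56 in PA and 2.19 in WT. Other lists had the opposite order, with 4.74 in PA and 9.60 in WT for acute phase genes, 3.07 in PA and 4.32 in WT for acyl-lysine readers, and -1.87 in PA and 0.36 in WT for interferon response genes. These are means of 2 preparations each, without a test, and the difference of WT 1 was the lower of the WT pair for cholesterol synthesis and for all genes.

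The same subtraction was made for lysine 5 of H4, where H4K5pr and H4K5ac libraries of the same preparations exist. Propionyl and acetyl marks differed in opposite ways at the lysines in 5 of the 6 measures that follow. Covered length had a log2 ratio of 0.03 for H4K12 and -0.17 for H4K5, peak number 0.08 for H4K12 and -0.27 for H4K5, and the number of peaks over 10 kb 0.21 for H4K12 and -0.54 for H4K5. The median width differed by -132 bp for H4K12 and by 436 bp for H4K5, and the share of peaks at gene starts by -1.06 percentage points for H4K12 and by 3.88 for H4K5. The share of covered bases in genes was higher for the propionyl mark at both lysines, by 3.95 percentage points at H4K12 and by 2.16 at H4K5. Each H4K12 minus H4K5 value had the same sign in 4 of 4 preparations (exact sign-flip p = 0.13).

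At gene starts limma found 0 of 13942 genes with a different mark effect at the lysines at an adjusted p of 0.05. At an unadjusted p under 0.05, 425 (3.05%) were more positive for H4K12 and 1399 (10%) more negative, or 799 and 835 after quantile normalization. Clec4g had 652, 2009, 0 and 500 bp of H4K12pr, against 1655, 2012, 1222 and 1528 bp of H4K12ac. For H4K5 it had 2479, 2784, 2527 and 2571 bp of H4K5pr, and H4K5ac was not listed there in any library. The difference of differences was -3404 bp (SE 224, adjusted p = 0.169). Fli1, an endothelial and blood cell transcription factor, and Ifi204, an interferon-inducible gene, followed with -3199 and -3278 bp. Ndufa4 stood on the other side, with 1899 bp. At its start H4K12pr averaged 4369 bp and H4K12ac 3134.5 bp, while H4K5pr averaged 2836 bp and H4K5ac 3500 bp. Habp2, which encodes a plasma serine protease, had 972 bp and Piwil2, a PIWI family gene, 1365 bp. Piwil2 was barely listed for H4K12, with means of 125 bp of H4K12pr and 250 bp of H4K12ac. Its positive value lies in the H4K5 pair, with 125 bp of H4K5pr and 1615 bp of H4K5ac.

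Over whole genes, the liver lists were on the propionyl side at both lysines in part. The secreted plasma protein genes had a mean difference of 16.8 percentage points for H4K12 and 25 for H4K5. The fatty acid oxidation genes had 10.8 for H4K12 and 0.32 for H4K5. The propionate and methylmalonate genes had 2.88 ± 0.97 for H4K12 and -0.55 ± 0.12 for H4K5, and the branched-chain amino acid genes 3.07 for H4K12 and -0.76 for H4K5. The Hox genes had -8.23 for H4K12 and 17.8 for H4K5. For H4K12 and H4K5, the means were 16.2 and 29.9 for hepatocyte markers, 13.3 and 18.7 for the urea cycle and 10.8 and 20.3 for gluconeogenesis. They were 13.8 and 9.03 for cholesterol synthesis, 12.3 and 9.05 for bile acid genes and 12.0 and 6.11 for PPARA targets. The higher gene-body coverage by the propionyl mark was therefore not confined to H4K12 for the plasma protein genes or for these lists.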

How the data were processed

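Histone acylation in livers of PA and WT mice was measured by ChIP-seq, and 8 peak lists of H4K12pr and H4K12ac were analysed, with the H4K5 lists and, for presence, those of the other antibodies beside them. The authors deposited each list as chromosome, start and end on GRCm38, also named mm10, so that widths and lengths are in base pairs and there is no score. Per the submitters' processing notes, the tools were HOMER 4.10, Bowtie2 2.5.1, bedtools 2.31.0, cutadapt 3.5, R 4.1.2 and SAMtools 1.17. Peak calling settings, input use and read depth: not given in the sources used here. Libraries held 53815 to 67651 peaks, the shortest 500 bp, and 7 entries on chromosome Y were removed.

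Gene positions came from a RefSeq table (GRCm38.p6) of 21631 protein-coding genes. For 17274 a start is listed, and for 4357 the gene end with the higher coverage was used, since the table gives no strand. For 2761 genes several starts are listed, and the one with the highest mean coverage was used. Coverage here is the mean over the 8 H4K12 libraries, both marks together. The comparison with H4K5 used the same starts. Covered base pairs in the 5000 bp at the start, and the percent of the gene's length covered, were fitted in R 4.3.3 by limma 3.58.1 (preparation as a block, trended prior, 2 or more libraries with a listed base, Benjamini-Hochberg, threshold 0.05). The PA against WT and H4K12 against H4K5 effects were fitted on per-preparation differences. Single measures were compared by exact two-sided sign-flip permutation over the 4 preparations. Other steps used Python 3.11.15 with pandas 2.3.3, numpy 2.4.6, matplotlib 3.10.9 and scipy 1.17.1.

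Both marks of a preparation carry its genotype, number and letter in the labels, and their deviations from the genotype means correlated across genes (r = 0.372 in PA and 0.303 in WT), so the preparation served as the block. On simulated data for H4K12pr minus H4K12ac over 13654 genes, the fit recovered 0% of differences of 500 bp, 6% of 1000 bp, 22% of 1500 bp and 20% of 2000 bp, with 0 false calls among 13454 genes, so single genes have little power.

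The genes named at starts are the 5 with the smallest unadjusted p in each direction, 3 in each direction for the other fits, Pcca, and up to 4 members of a described list by the smallest p at the start. The whole-gene and X-linked leaders were chosen after their values were seen. The members and lists were chosen with earlier results of these data known. Alternatives covered the window, quantile normalization, equal peak numbers, filters, the trend, the block, stricter or merged peaks, and leaving out each preparation; the whole-gene, X-linked and long-peak alternatives and the restriction to listed starts or autosomes were added after seeing the data. The input libraries were not used here. A list member that the rule selected is not reported here.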

Additional observations from a re-analysis of the deposited data

Results flagged for a closer look

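Several H4K12 values stood apart from those of H4K5, where every preparation moved one way at H4K12 and the other way at H4K5, or the difference of differences had 1 sign in all preparations. With 4 preparations the exact sign-flip test cannot go below p = 0.13, so these differences are given as measured and no cause was tested. The H4K12 minus H4K5 value of the propionyl minus acetyl difference was 0.20 on the log2 scale for covered length, 0.35 for peak number and 0.75 for peaks over 10 kb. It was -568 bp for the median peak width and -4.95 percentage points for the share of peaks at gene starts. For the share of covered bases on chromosome X it was -1.04 on the log2 scale. Over whole genes it was 3.42 percentage points for the propionate and methylmalonate genes, 3.83 for the branched-chain amino acid genes and -26.0 for the 6 tested Hox genes. The antibodies of the 4 marks differ, so lysine, acyl group and antibody cannot be told apart.

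A single preparation stood apart from the other 3 in 3 of the paired H4K12pr minus H4K12ac values. The log2 ratio of covered length was 0.12 in WT 2, far above the others. The Tmem30a difference was lowest in PA 1, at 602 bp, and the Tln1 difference lowest in PA 2, at 808 bp. Such a gap is expected in about 1 in 20 groups of this size, and many values were looked at.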

How the results depend on the processing

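With the start window, 0 genes differed between H4K12pr and H4K12ac in limma under each alternative run. At an unadjusted p under 0.05 the higher and lower counts were 552 and 731, against 989 and 808 in the 5 kb on each side and 633 and 629 after quantile normalization. The labels pair the marks by preparation. With no replicate block, 0 genes passed, and 356 were higher and 500 lower at an unadjusted p under 0.05; over whole genes 0 passed, with 1318 and 466. The PA against WT effect gave 0 genes except without the filter on covered libraries, where 22 passed, 14 more positive and 8 more negative in PA, most by 500 bp, the length of a single shortest peak. The H4K12 against H4K5 effect gave 0 genes except in the 5 kb on each side, where 1 passed, Hlx, a homeobox gene (adjusted p = 0.0401), named after its value was seen.

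Of 765 values of named genes under alternatives, 760 kept direction and side of the threshold and 5 turned. Over the whole gene these were Sp1 (2.27 percentage points), Pcca (0.915), Stag2 (0.193) and the PA against WT value of Leng9, which was 0, and without each preparation in turn the start value of Pcca ran from -322 to 33.3 bp, the highest without PA 1. The log2 ratio of peak numbers turned to -0.0075 among peaks of at least 1000 bp. The H4K12pr bases shared were 79.4% with equal peak numbers and 82.0% among peaks of at least 1000 bp, and the H4K12ac bases shared 82.7% among peaks of that size. Regions listed in all libraries of H4K12pr and none of H4K12ac numbered 59 where 50% had to be covered, 81 with equal peak numbers and 441 to 503 without 1 preparation, and those for H4K12ac alone 109 and 239 to 331. Fewer libraries then had to hold a peak. The causes of the other shifts were not tested. Without each preparation in turn, the difference in covered bases in genes ran from 3.58 to 4.27 percentage points, the log2 ratio on chromosome X from -0.32 to -0.29 and the median width difference from -156 to -107 bp. Depth is unknown, so a mark below the caller's threshold in 1 library cannot be told apart from its absence.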
